A study of Mus musculus with 12 samples.

Results

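The NR4A nuclear receptors are a family of transcription factors encoded in the mouse by Nr4a1 (NUR77), Nr4a2 (NURR1) and Nr4a3 (NOR1). The family was found by gene symbol, and all 3 genes were present among the 11022 genes of the mRNA table. Cytotoxic T lymphocytes (CTL) were grown from P14 mice, females aged 9 to 13 weeks, whose transgenic T cell receptor (TCR) recognises the gp33-41 peptide of lymphocytic choriomeningitis virus. Every culture was activated for 48 h with this peptide, interleukin 2 (IL-2) and interleukin 12, expanded in IL-2 and, on day 7, rested for 1 h in 20 ng/mL IL-2. There were 4 groups of 3 cultures each. One was left unstimulated, and one, called TCR below, was retriggered for 4 h with 100 ng/mL peptide. The other two received the same peptide together with 10 µM IC87114, which inhibits PI3K p110δ (a lipid kinase), or with 2 µM PD184252, an inhibitor of the kinases MEK1/2 that activate ERK1/2. DMSO was the vehicle control. The transgene encodes 1 receptor specificity, and the sources used here state no sorting of these CTL. The cells came from 3 mice. No group analysed here received an inhibitor without peptide, so effects on resting CTL were not compared.

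NR4A proteins are orphan nuclear receptors: they bind DNA at NBRE elements as monomers, and are governed mainly by how much protein is made rather than by a ligand. In T cells their genes respond within hours to antigen receptor engagement, and a Nr4a1 reporter is widely used as a readout of TCR signal strength. NR4A proteins are known for roles in deletion of self-reactive thymocytes, in regulatory T cells, and in limiting effector function and promoting exhaustion in CD8 T cells.

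The sequence upstream of each gene is shown first, as a description. All 3 mRNA rose on stimulation, and a link of that rise to these bases was not tested. On GRCm38, Nr4a1 (Entrez gene 15370) spans chromosome 15, 101254269 to 101274795, on the plus strand. Nr4a2 (Entrez gene 18227) spans chromosome 2, 57106830 to 57124003, on the minus strand, and Nr4a3 (Entrez gene 18124) spans chromosome 4, 48045153 to 48086447, on the plus strand. The number of other annotated genes overlapping each span was 0. RefSeq promoter sequences (GRCm38.p6) were matched for all 3 genes, and the capitals below mark CGTCA on either strand, a core of the cyclic AMP response element (CRE) bound by CREB family factors. The stretches are the 250 bases before the RefSeq start for Nr4a1 (chr15:101266596-101266845, plus strand, inside the span of Nr4a1 but outside its annotated exons) and Nr4a2 (chr2:57124004-57124253, minus strand, upstream of the gene). For Nr4a3 they are 30 of those bases (chr4:48045084-48045113, plus strand, upstream of the gene), chosen because they hold a pair of CGTCA sites close together. The RefSeq start of Nr4a3, at 48045305, lies inside the annotated span, so most of its window is exon of other transcripts and is not shown.
Nr4a1: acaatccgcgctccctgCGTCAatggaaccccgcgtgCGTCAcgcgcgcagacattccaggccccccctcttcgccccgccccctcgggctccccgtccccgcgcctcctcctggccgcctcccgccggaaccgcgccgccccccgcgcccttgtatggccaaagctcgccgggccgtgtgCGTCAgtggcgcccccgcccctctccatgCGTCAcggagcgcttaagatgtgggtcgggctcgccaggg
Nr4a2: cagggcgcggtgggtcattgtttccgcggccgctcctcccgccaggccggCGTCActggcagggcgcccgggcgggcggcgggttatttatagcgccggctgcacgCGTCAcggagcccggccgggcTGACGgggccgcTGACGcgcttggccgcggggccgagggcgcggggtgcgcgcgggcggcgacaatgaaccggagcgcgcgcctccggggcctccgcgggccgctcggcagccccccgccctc
Nr4a3: tcccatgtCGTCAcatTGACGtctcgcatt
In each of the 3 genes the 250 bases held CGTCA 4 times, counting both strands, where 17.8% of 32851 RefSeq promoter windows of this length held it at least once and 0.137% held it 4 or more times. In Nr4a1 the CGTCA sites lay at -233, -213, -69 and -40 from the start, and all 4 were part of the longer TGCGTCA, which 1.75% of windows held. In Nr4a2 they lay at -200, -144, -123 and -111, and in Nr4a3 at -231, -213, -205 and -147. The windows were rich in G and C, with 74.4% in Nr4a1, 80.0% in Nr4a2 and 63.6% in Nr4a3, against a median of 52.4% over all windows. The full CRE TGACGTCA, the AP-1 element TGANTCA and the NBRE AAAGGTCA were each found 0 times in the 3 windows, searched on both strands. The CArG box and a strict form of the MEF2 box were also found 0 times. In that order, these motifs were present in 1.55%, 6.75%, 1.34%, 1.47% and 0.508% of all windows. The NFAT core GGAAA (55.6% of windows) and TATTTATA (1.56%) each occurred once, both in Nr4a2. The strict MEF2 box searched was CTA, a run of A or T, then TAG. In Nr4a2, TATTTATA with the T before it and the G after it differs from that only by its opening T. A MEF2 box allowing T there was not counted, so the 0 holds for the strict form only. The motifs were chosen after these letters had been read, and the windows compared were not matched for G and C. The shares of windows therefore do not measure how unusual the counts are. These counts describe letters in 250 bases and were not tied to binding of any factor.

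The values are FPKM, read fragments per length of exon and per library size, scaled between samples by the authors with TMM, and can be compared between genes because they are per length. The table holds no read totals. The spacing of low values put the depth at about 7780000 to 13260000 reads per sample, and so Nr4a1 in unstimulated CTL at roughly 27 to 34 reads per culture, estimates that depend on the settings used. In unstimulated CTL the 3 mRNA were low and unequal. Nr4a1 was at 0.79, 0.74 and 0.73 FPKM (mean 0.753 ± 0.0321, SD, n = 3), with 8.82% of genes below it in mean level. Nr4a2 was at 3.78, 3.70 and 3.76 FPKM (3.75 ± 0.0416), and Nr4a3 at 9.59, 12.07 and 8.31 FPKM (9.99 ± 1.91). In each of the 3 cultures the order was Nr4a1, Nr4a2, Nr4a3 from low to high, with no overlap between neighbours. Nr4a3 thus made up 68.6% ± 4.16 of the summed NR4A level in resting CTL and Nr4a1 5.25% ± 0.672.

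TCR retriggering raised all 3 mRNA. Nr4a1 reached 173.02, 139.40 and 194.14 FPKM (169 ± 27.6), which was 224 times the unstimulated mean. Nr4a2 reached 109.59, 112.90 and 137.68 FPKM (120 ± 15.4), or 32.0 times, and Nr4a3 reached 258.18, 301.86 and 322.86 FPKM (294 ± 33.0), or 29.5 times. For each gene every stimulated culture lay above every unstimulated one, a separation by any margin that 34.7% of all genes showed in this direction. Nr4a1 passed Nr4a2, and the order from low to high became Nr4a2, Nr4a1, Nr4a3 in all 3 cultures, although the lowest Nr4a1 culture (139.40 FPKM) was barely above the highest Nr4a2 culture (137.68 FPKM). Nr4a3 stayed the most abundant member.

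A gene was called when its limma adjusted p was below 0.05 and its change exceeded 2-fold, a rule that called 8.87% of all genes higher and 11.1% lower after TCR stimulation. On the log2(FPKM + 0.1) scale the change was 7.62 for Nr4a1 (SE 0.11, limma adjusted p = 1.64e-16), 4.96 for Nr4a2 (SE 0.10, adjusted p = 5.18e-15) and 4.88 for Nr4a3 (SE 0.12, adjusted p = 7.21e-14). Ordered by this change, they were the 14th, 68th and 71st largest rises of 11022 genes. The added 0.1 lowers the fold of Nr4a1, which is 196 from the fitted value. With every sample set to one total FPKM (the TPM scale), which moves the median of all genes to -0.41, left rises of 7.23, 4.55 and 4.47.

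**Figure D1:**
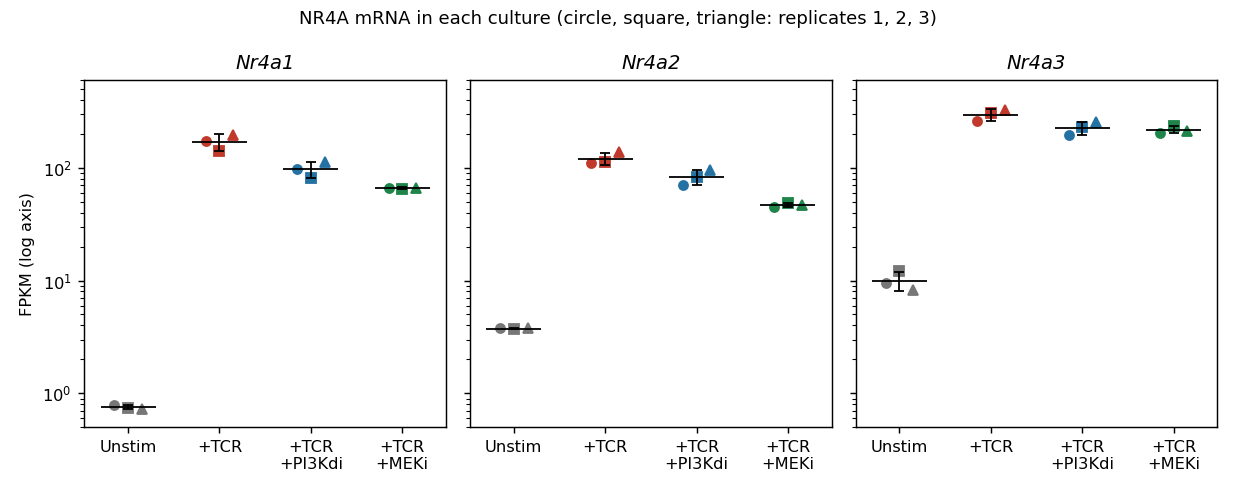
FPKM (log axis) of Nr4a1, Nr4a2 and Nr4a3 in unstimulated CTL (Unstim) and after TCR stimulation alone or with the PI3K p110δ inhibitor (PI3Kdi) or the MEK inhibitor (MEKi). Each symbol is 1 culture, horizontal lines are means and error bars are SD (n = 3). Nr4a1 goes from 0.753 to 169 FPKM on stimulation, and with the MEK inhibitor Nr4a1 and Nr4a2 lie at 65.8 and 46.8 FPKM while Nr4a3 lies at 217 FPKM.

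The PI3K p110δ inhibitor asked how much of each mRNA depended on this kinase during the 4 h of stimulation. Nr4a1 was at 96.51, 81.02 and 112.07 FPKM (96.5 ± 15.5), which was 57.2% of the TCR mean. Nr4a2 was at 69.84, 81.89 and 94.37 FPKM (82.0 ± 12.3), or 68.3%. Nr4a3 was at 193.97, 231.06 and 253.22 FPKM (226 ± 29.9), or 76.8%. For each member all 3 inhibited cultures lay below all 3 TCR cultures, as did 18.6% of all genes, but for Nr4a3 the highest inhibited culture came within a few FPKM of the lowest TCR culture. In replicate 2 Nr4a1 lay just under Nr4a2, so these neighbours no longer kept one order. The ratio of same-numbered cultures varied little, from 0.558 to 0.581 for Nr4a1, from 0.637 to 0.725 for Nr4a2 and from 0.751 to 0.784 for Nr4a3.

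None of the 3 genes was called lower with the PI3K p110δ inhibitor, since each fell short of a 2-fold change, and 1.38% of all genes were called. The log2 difference was -0.81 for Nr4a1 (95% interval -1.05 to -0.56, limma adjusted p = 0.00016). It was -0.55 for Nr4a2 (-0.76 to -0.34, adjusted p = 0.000949) and -0.38 for Nr4a3 (-0.65 to -0.12, adjusted p = 0.0345). By the adjusted p alone, whatever the fold, 12.8% of genes were lower. The value for Nr4a3 was not stable: its adjusted p was 0.254 on the TPM scale, 0.314 after quantile normalisation and 0.0789 without the trend in limma. It was 0.0807 without TCR replicate 2, 0.122 without TCR replicate 3, 0.124 without PI3K inhibitor replicate 1 and 0.0649 without PI3K inhibitor replicate 2.

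With the MEK inhibitor, Nr4a1 and Nr4a2 fell and Nr4a3 was not called. Nr4a1 was at 66.28, 64.54 and 66.45 FPKM (65.8 ± 1.06) and Nr4a2 at 44.75, 48.74 and 46.77 FPKM (46.8 ± 2.00), each 38.9% of its TCR mean. Nr4a3 was at 204.32, 233.48 and 212.23 FPKM (217 ± 15.1), or 73.6% of its TCR mean. All inhibited cultures again lay below all TCR cultures for each member, as they did for 24.1% of genes. The 3 cultures with the MEK inhibitor lay closer together than the TCR cultures for all 3 genes.

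The rule called 2.51% of genes lower with the MEK inhibitor. Nr4a1 changed by -1.35 on the log2 scale (SE 0.11, limma adjusted p = 6.05e-07) and Nr4a2 by -1.35 (SE 0.10, adjusted p = 1.43e-07). Nr4a3 differed by -0.44 (95% interval -0.70 to -0.17, adjusted p = 0.0126), short of a 2-fold change, where 18.2% of genes were lower at this adjusted p whatever the fold. Its adjusted p was 0.287 on the TPM scale, 0.135 after quantile normalisation and 0.0547 without TCR replicate 3. When the test itself required more than a 2-fold change (limma treat), neither Nr4a1 (adjusted p = 0.325) nor Nr4a2 (adjusted p = 0.129) was called.

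Both inhibitor effects are taken against the same TCR cultures, so the inhibitor groups were also compared directly. MEK inhibition left Nr4a1 below its level under PI3K p110δ inhibition by a log2 difference of -0.54 (limma adjusted p = 0.0024), and Nr4a2 by -0.80 (adjusted p = 2.73e-05). The cultures of the 2 groups did not overlap for these genes, as for 22.7% of all genes in this direction. Neither difference reached 2-fold, so neither gene was among the 1.71% called lower, while 14.4% of genes were lower at the adjusted p alone. For Nr4a3 the groups overlapped and the log2 difference was -0.06 (95% interval -0.32 to 0.21, adjusted p = 0.774).

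**Figure D2:**
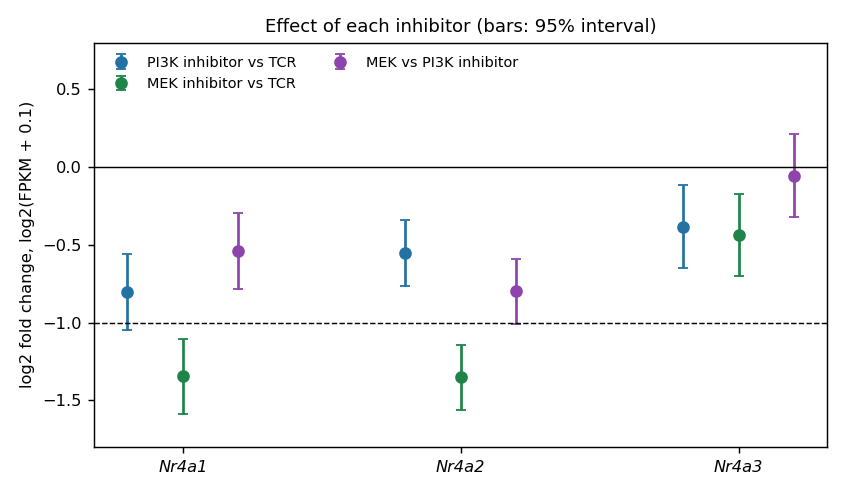
Log2 fold change of Nr4a1, Nr4a2 and Nr4a3 on the log2(FPKM + 0.1) scale for each inhibitor against TCR stimulation alone and for the MEK against the PI3K inhibitor. Points are limma estimates from 3 cultures per group, bars are 95% intervals and the dashed line is a 2-fold decrease. The MEK inhibitor estimates of Nr4a1 and Nr4a2, both -1.35, lie below the dashed line, and that of Nr4a3, -0.44, lies above it.

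With either inhibitor all 3 mRNA stayed above their level in unstimulated CTL. Against unstimulated CTL, the PI3K p110δ inhibitor group was higher by 6.81 for Nr4a1, 4.41 for Nr4a2 and 4.50 for Nr4a3 on the log2 scale, all called, as were 7.16% of genes in this direction. The MEK inhibitor group was higher by 6.27, 3.61 and 4.44, again all called, against 6.95% of genes. The summed level of the 3 mRNA was 14.5 ± 1.88 FPKM in unstimulated CTL, 583 ± 62.3 after TCR stimulation, 405 ± 50.5 with the PI3K p110δ inhibitor and 329 ± 16 with the MEK inhibitor. In bulk cultures, fewer responding cells and less mRNA per cell cannot be told apart.

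The share of each member in this sum is given as a description, without a test. Nr4a1 held 5.25% of it in unstimulated CTL, 28.9% ± 3.48 after TCR stimulation, 23.9% ± 3.14 with the PI3K p110δ inhibitor and 20.0% ± 1.25 with the MEK inhibitor. The share of Nr4a2 was 26.2% ± 3.51, 20.6% ± 0.414, 20.2% ± 0.747 and 14.2% ± 0.158 in the same order. The share of Nr4a3 was 68.6% ± 4.16, 50.5% ± 3.52, 55.9% ± 2.50 and 65.8% ± 1.36. Nr4a3 was the largest part in every group, and with the MEK inhibitor its share lay within the SD of that in unstimulated CTL.

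Whether 2 members responded unequally was tested on their log2 ratio within each culture, which does not depend on how samples were scaled except through the added 0.1. The test was a two-sided exact permutation test of 3 against 3 cultures, whose smallest possible p is 0.1, so no difference could pass 0.05, and 9 such tests were adjusted together. After TCR stimulation the log2 ratio of Nr4a1 to Nr4a2 was higher by 2.66 (mean 0.49, against -2.17 unstimulated) and that of Nr4a1 to Nr4a3 by 2.74 (-0.81 against -3.55), each with exact p = 0.1 (adjusted p = 0.18) and no overlap of the cultures. The ratio of Nr4a2 to Nr4a3 moved by 0.08 (exact p = 0.8), less than its spread.

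With the MEK inhibitor, Nr4a1 over Nr4a3 was lower by a log2 difference of -0.91 and Nr4a2 over Nr4a3 by -0.91, each without overlap (exact p = 0.1, adjusted p = 0.18). The ratio of Nr4a1 to Nr4a2 differed by 0.01 (exact p = 0.9), with overlapping cultures. With the PI3K p110δ inhibitor the differences were -0.42 for Nr4a1 over Nr4a3 and -0.25 for Nr4a1 over Nr4a2, both with overlap between the groups (exact p = 0.2, adjusted p = 0.257). Within same-numbered pairs of cultures all 3 differences were negative for each ratio, at -0.43, -0.40 and -0.44 for Nr4a1 over Nr4a3 and at -0.19, -0.32 and -0.25 for Nr4a1 over Nr4a2. A paired exact sign-flip permutation test of 3 pairs gave its smallest possible p, 0.25, for both. Nr4a2 over Nr4a3 differed by -0.17 without overlap (exact p = 0.1, adjusted p = 0.18).

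**Figure D3:**
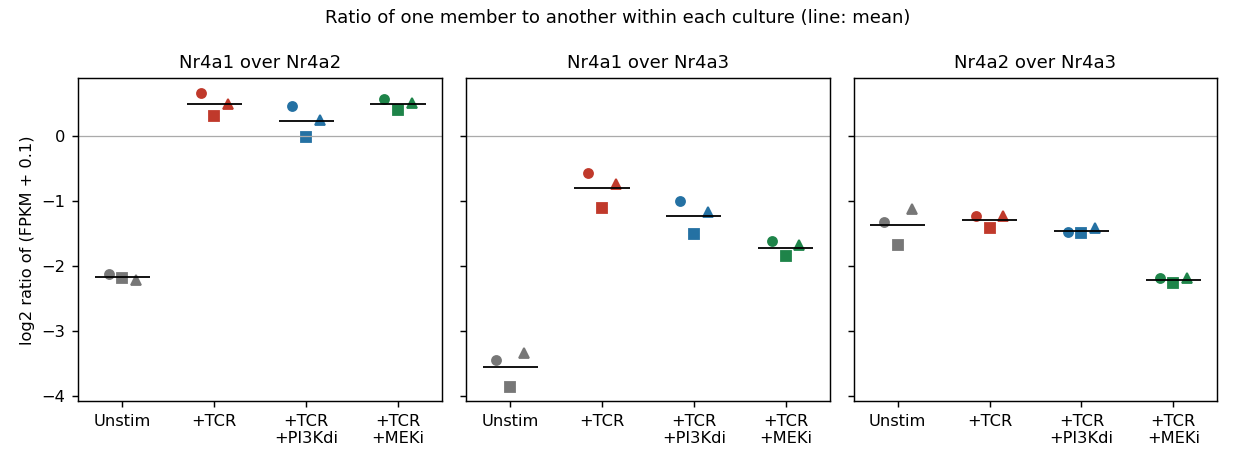
Log2 ratio of one NR4A member to another within each culture, from FPKM + 0.1, in the 4 groups. Each symbol is 1 culture (circle, square and triangle are replicates 1, 2 and 3), black lines are means and the grey line marks equal levels. The ratio of Nr4a1 to Nr4a2 goes from -2.17 to 0.49 on stimulation, and that of Nr4a2 to Nr4a3 goes from -1.29 with TCR alone to -2.21 with the MEK inhibitor.

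Nuclear receptors as a superfamily are ligand-sensing or orphan transcription factors, and 23 of the 48 listed genes were in the table. Among these, Nr4a1, Nr4a2 and Nr4a3 ranked 15th, 11th and 5th by level in unstimulated CTL, and 2nd, 3rd and 1st after TCR stimulation and with either inhibitor. Of the 20 other members, 4 rose (20.0%, against 8.87% of all genes), 1 fell (5.0%, against 11.1%) and 15 were not called after stimulation. Rarg, a retinoic acid receptor, went from 1.5 ± 0.371 to 3.98 ± 0.315 FPKM (log2 fold change 1.38, limma adjusted p = 4.54e-06). Rxra, which encodes a retinoid X receptor that can pair with NR4A1 and NR4A2, went from 0.590 ± 0.285 to 1.71 ± 0.225 FPKM (1.47, adjusted p = 1.03e-04).

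With the PI3K p110δ inhibitor 2 of these 20 were called lower (10.0%, against 1.38% of all genes), again Rxra and Rarg. Of the 20, 0 were called higher, against 0.499% of all genes. Rxra was at 0.530 ± 0.0361 and Rarg at 1.86 ± 0.310 FPKM. Both levels are low, and calls of single list genes were not followed under other pseudocounts. Rxrb, a more abundant retinoid X receptor gene named after its values were seen, was at 14.2 FPKM with TCR alone. It was at 14.7 FPKM with the PI3K inhibitor and 19.6 FPKM with the MEK inhibitor, and was not called. With the MEK inhibitor 1 of 20 was lower (5.0%, against 2.51% of all genes). This was Rxra at 0.503 ± 0.0551 FPKM (log2 fold change -1.58, limma adjusted p = 2.22e-04). After stimulation the median log2 change of the 20 genes was 0.17, against -0.01 for all genes. The most abundant of the 20 after stimulation, named after its values were seen, was Nr1h2 (encoding LXRβ) at 42.8 FPKM.

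**Figure D4:**
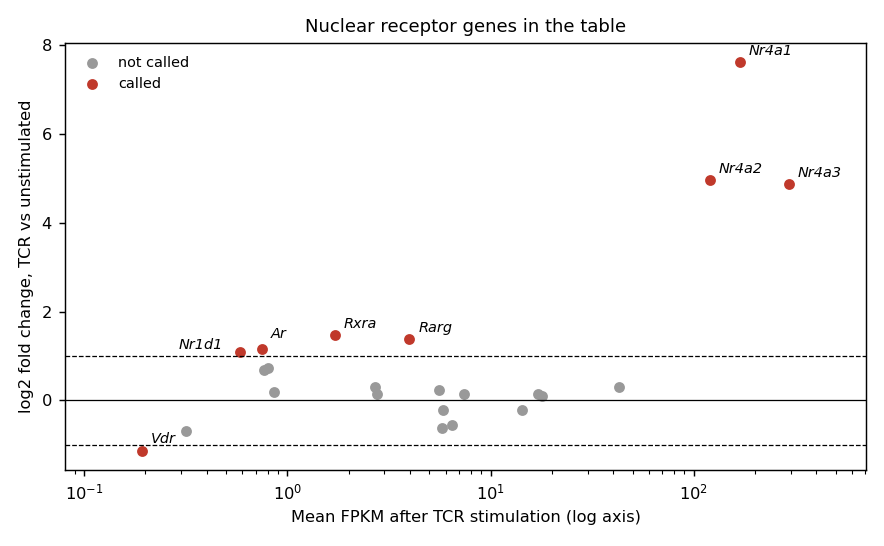
Log2 fold change of the 23 nuclear receptor genes, TCR against unstimulated CTL, plotted against their mean FPKM after TCR stimulation (log axis, n = 3 cultures per group). Red points were called, grey points were not, and dashed lines mark a 2-fold change either way. Nr4a1 (7.62), Nr4a2 (4.96) and Nr4a3 (4.88) lie highest and farthest to the right.

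Genes that regulate Nr4a transcription, among them MEF2 factors, class IIa histone deacetylases, calcineurin and NFAT, CREB with its coactivators and SRF with its partners, had 29 members in the table (33 listed). On stimulation 0 rose, against 8.87% of all genes, and 2 fell (6.90%, against 11.1%). With either inhibitor 0 of these 29 were called. Under PI3K p110δ inhibition 1.38% of all genes were called lower and 0.499% higher. Under MEK inhibition these shares were 2.51% and 0.98%. At shares this small, 0 of 29 does not set the list apart from the table. The list's median log2 change against TCR alone was 0.112 under PI3K p110δ inhibition, against 0.015 for all genes. Under MEK inhibition it was 0.177, against 0.01. Nfatc2, a calcium-responsive NFAT factor, fell on stimulation from a mean of 30.6 to 10.8 FPKM (log2 fold change -1.5, limma adjusted p = 4.67e-09). Hdac5, a class IIa histone deacetylase that holds MEF2 target genes in check, fell from 2.78 to 1.26 FPKM (-1.09, adjusted p = 6.01e-06). Their relatives, named after their values were seen, were not called and went both ways. Nfatc1 went from 21.0 to 40.0 FPKM (0.93, limma adjusted p = 1.69e-07) and Nfatc3 from 43.0 to 24.2 FPKM (-0.83, adjusted p = 7.71e-08). Hdac7 went from 19.9 to 35.3 FPKM (0.83, adjusted p = 7.87e-08), while Hdac4 was at 7.95 and 7.76 FPKM. The median log2 change of the list on stimulation was -0.34.

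Partners and co-regulators of NR4A proteins numbered 22 in the table (23 listed), of which 2 rose (9.09%, against 8.87% of all genes) and 3 fell (13.6%, against 11.1%) on stimulation. Bcl2, the survival protein that NR4A1 can bind at mitochondria, fell from 48.5 to 17.9 FPKM (log2 fold change -1.44, limma adjusted p = 3.10e-09). Bcl2l1, which encodes the related BCL-XL, rose from 57.4 to 172 FPKM (1.58, adjusted p = 3.00e-12). Prkdc, the catalytic subunit of DNA-dependent protein kinase, fell from 2.95 to 1.20 FPKM, Rcor2, a corepressor, fell from 1.5 to 0.640 FPKM, and the other riser was Rxra. With each inhibitor 1 of 22 was lower, again Rxra (4.55%, against 1.38% of all genes with the PI3K and 2.51% with the MEK inhibitor). The median log2 change on stimulation was near 0.

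T cell genes linked to NR4A activity, a list of inhibitory receptors, cytokines and transcription factors, had 29 members in the table. Of these 29 (31 listed), 20 rose (69.0%, against 8.87% of all genes) and 1 fell (3.45%, against 11.1%) on stimulation. The median log2 change was 1.72. Many of these genes are known as TCR targets in their own right, and the list was chosen with results of these data known. Pdcd1, which encodes the inhibitory receptor PD-1, was chosen after its values were seen and went from 18.2 to 210 FPKM (log2 fold change 3.56). Ifng, encoding interferon γ, rose from 72.4 ± 3.33 to 29600 ± 1380 FPKM (8.67, limma adjusted p = 2.33e-18). Tnf, encoding TNFα, rose from 63.0 ± 7.02 to 3250 ± 266 FPKM (5.69, adjusted p = 2.08e-12). Il2 went from 0.0633 ± 0.110 to 705 ± 57.3 FPKM. Entpd1, encoding the ectonucleotidase CD39, fell from 39.7 to 15.5 FPKM (-1.35, adjusted p = 3.36e-11).

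With the PI3K p110δ inhibitor 4 of these 29 were lower (13.8%, against 1.38% of all genes) and 0 higher (against 0.499%). Il2 fell to 87.2 ± 24.1 FPKM (log2 fold change -3.05, limma adjusted p = 2.38e-05), Tnf to 539 ± 96.4 FPKM (-2.61, adjusted p = 4.92e-07) and Cd200, an immunoregulatory surface protein, from 1.73 to 0.713 FPKM (-1.20). The fourth was Cd5, an inhibitory receptor tuned by TCR signalling, which was named after its values were seen (-1.01). With the MEK inhibitor 3 were lower (10.3%, against 2.51% of all genes) and 1 higher (3.45%, against 0.980%). Il2 fell to 50.7 ± 17.1 FPKM (-3.85, adjusted p = 9.45e-07), Tnf to 409 ± 147 FPKM (-3.05, adjusted p = 3.33e-08) and the inhibitory receptor gene Tigit from 121 ± 11.7 to 55.2 ± 3.55 FPKM (-1.13, adjusted p = 2.60e-08). Klf2, a factor for T cell trafficking, rose from 1.10 ± 0.269 to 4.81 ± 0.356 FPKM (2.05, adjusted p = 3.08e-06). The decreases of Il2 and Tnf were larger than those of any NR4A gene with the same inhibitor, a comparison of estimates that was not tested.

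Other immediate early transcription factor genes numbered 23 in the table (24 listed). On stimulation 12 rose (52.2%, against 8.87% of all genes) and 1 fell (4.35%, against 11.1%), with a median log2 change of 1.12. Egr2 rose from 1.47 ± 0.0551 to 172 ± 7.88 FPKM (log2 fold change 6.78, limma adjusted p = 5.89e-16), which put it at the level of Nr4a1. Egr3 rose from 2.50 to 87.3 FPKM (5.05) and Atf3, a stress-responsive factor, from 1.92 to 54.8 FPKM (4.77). Nfil3, a basic leucine zipper factor, fell from 81.9 to 23.8 FPKM (-1.78). With the PI3K p110δ inhibitor 0 of 23 were called, where 1.38% of all genes were called lower and 0.499% higher. As for the NR4A genes, differences short of 2-fold were present: the list's median log2 change was -0.35, against 0.015 for all genes. Egr2 was at 97.2 FPKM (-0.83, limma adjusted p = 1.27e-04), Egr3 at 52.6 FPKM (-0.71) and Atf3 at 37.9 FPKM (-0.53), while Nfil3 was higher at 29.9 FPKM (0.33).

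With the MEK inhibitor 7 of the 23 fell (30.4%, against 2.51% of all genes) and 0 rose (against 0.980%). Egr1 fell from 87.5 ± 10.5 to 4.47 ± 0.922 FPKM (log2 fold change -4.27, limma adjusted p = 2.14e-11), below its unstimulated mean of 37.2 FPKM. Egr2 fell to 30.7 ± 6.47 FPKM (-2.50, adjusted p = 1.63e-09) and Fosb from 2.42 ± 0.126 to 0.577 ± 0.0306 FPKM (-1.90, adjusted p = 8.55e-06). The estimate for Egr3 was -1.29, beside -1.35 each for Nr4a1 and Nr4a2, while Atf3 (0.07) was not called.

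The 5 genes nearest to each member were found from the 4 group means of log2(FPKM + 0.1), each centred on its own mean, among 10231 genes with at least 1 FPKM in some group. Nearest to Nr4a1 were Crtam, an adhesion receptor of activated CD8 T cells (distance 0.396), Tagap, a RhoGTPase activating protein of activated T cells (0.446), Mpzl2, Spry1 and Tnip3. Crtam was at 4.14, 835, 562 and 264 FPKM in the unstimulated, TCR, PI3K inhibitor and MEK inhibitor groups, and Tagap at 0.753, 147, 89.8 and 43.3 FPKM. Spry1, a feedback inhibitor of growth factor signalling, was at 0.283, 48.7, 52.1 and 14.8 FPKM, so that its mean with the PI3K inhibitor was not below TCR alone as that of Nr4a1 was.

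Nearest to Nr4a2 were Egr3 (distance 0.172), Cd24a, Bcl2a1d, Sgms2 and Il1r2. Egr3 was at 2.50, 87.3, 52.6 and 35.2 FPKM in the same order of groups, beside 3.75, 120, 82.0 and 46.8 FPKM for Nr4a2. Bcl2a1d, an antiapoptotic gene of the BCL2 family with near-identical copies between which reads can be split, was at 6.22, 160, 107 and 60.7 FPKM. Nearest to Nr4a3 were Lctl (0.337), Chst2, Tnfrsf4, Rgs16 and Tnfaip3. Tnfrsf4, which encodes the costimulatory receptor OX40, was at 4.11, 148, 76.9 and 79.4 FPKM, and Tnfaip3, which encodes the NF-κB inhibitor A20, at 3.68, 90.4, 102 and 72.6 FPKM.

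Over the 12 samples, Pearson r of these genes with their member lay between 0.979 and 0.996. These points share the contrast of stimulated with unstimulated cultures, so r is high for many genes. The choice of measure decided the names: ranked by Pearson r, 0 of the 5 nearest genes of each member were the same. The members were not each other's nearest genes. Nr4a2 and Nr4a3 lay 0.730 apart, and Nr4a1 lay 2.24 from Nr4a2 and 2.09 from Nr4a3.

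The cultures bore the mRNA of CTL: all 8 listed CTL markers were in the table, with a summed level of 11200 to 18800 FPKM. Of B cell markers 0 of 6 were in the table. Of myeloid markers 2 of 8 were (Itgax and Cd68), with sums of 8.15 to 8.93 FPKM in unstimulated CTL, 5.39 to 8.83 after TCR stimulation, 6.86 to 8.54 with the PI3K inhibitor and 7.26 to 8.68 with the MEK inhibitor. The CD4 T cell list had 2 of 3 in the table, of which Cd4 had a mean of 2.94 FPKM at most and Cd40lg rose from 1.16 to 112 FPKM on stimulation. Natural killer cell markers had 2 of 4 (Klrb1c and Eomes), with sums of 73.2 to 117 FPKM. Most of this was Eomes, which went from 73.2 to 109 FPKM on stimulation, while Klrb1c went from 5.39 to 1.79 FPKM. The paper counts Eomes among CD8 T cell transcription factors and Cd40lg among the cytokine mRNA of retriggered CTL, so neither marks only other cells. The part of such cells in the NR4A values was not tested.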

How the data were processed

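mRNA was profiled by paired-end sequencing (stranded TruSeq libraries, 100-base reads) in 12 CTL cultures, 3 per group. The authors aligned reads to mm10 with STAR 2.4.2a, counted them per RefSeq gene with Subread 1.5.0, removed genes of low count, applied TMM in edgeR and deposited FPKM rounded to 2 decimals. Whether counting used strand is not stated in the sources used here. Columns were assigned by their headers, and 0 value columns were left unassigned. The authors' own statistics were made on counts, which were not used here.

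log2(FPKM + 0.1) of all 11022 genes was fitted with limma 3.58.1 in R 4.3.3, with 1 mean per group over all 12 samples and an eBayes trend. Benjamini-Hochberg adjustment covered all genes, and genes were called at an adjusted p under 0.05 with more than a 2-fold change. The fit was tested on simulated data. Ratios between members were compared by two-sided exact permutation in SciPy 1.17.1, and Python 3.11.15, NumPy 2.4.6, pandas 2.3.3 and matplotlib 3.10.9 were used. The members and gene lists were chosen with earlier results of these data known.

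Named genes were the 3 members, the 5 genes nearest to each by Euclidean distance of centred group means, and from each list the 3 called genes with the largest rise and fall per comparison at a mean of at least 1 FPKM. Genes outside this rule are marked where they appear. In the nuclear receptor list 1 gene is not reported here and enters none of its counts. The 9 motifs were chosen after the promoter letters had been read.

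Values did not resolve into whole reads: 47.6% to 67.6% of low values lay within 0.15 of a whole read. Spacing alone gives 30% for a depth not chosen on these values. Here the depth was the one that brought the same low values closest to whole reads, which raises the share. Depth was estimated with genes of up to 9 transcripts and a search from 6 to 20 (in units of 1e6 reads). These settings were chosen after a first attempt, with genes of 1 transcript and a search from 4 to 25, had given 4.84 to 11.19, so the depth is approximate.

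The cells came from 3 mice, and the sources do not state that equal replicate numbers mark the same mouse. Gene by gene, the departures from the group mean of cultures with equal numbers were correlated over 9899 genes. The correlation was 0.122 to 0.451 in each pair of the 3 stimulated groups and -0.062 to 0.153 with the unstimulated group. For the unstimulated and MEK inhibitor groups it was 0.117 to 0.147, beside 0.137 to 0.149 for the 2 inhibitor groups. Cultures with different numbers were not correlated, so these values cannot settle which groups were paired. Ratios of same-numbered cultures are given only among the 3 stimulated groups. The replicate block and the sign-flip tests used the numbers of all 4 groups, the unstimulated one included. If same-numbered cultures share a mouse, the p-values without the block ignore it. Alternatives were another pseudocount (1 or 0.01), only genes whose mean FPKM was at least 1, quantile normalisation, the TPM scale, a replicate block, the compared groups alone, no trend, limma treat and leaving out each culture.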

Additional observations from a re-analysis of the deposited data

How the results depend on the processing

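The rises of Nr4a1, Nr4a2 and Nr4a3 on stimulation were called under all 21 alternatives, with log2 changes of 6.59 to 7.78, 4.55 to 5.02 and 4.47 to 5.02. The falls of Nr4a1 and Nr4a2 with the MEK inhibitor were called under 20 of 21, all but limma treat (-1.35 for both). The replicate block changed no call of a member. Called genes over the whole table numbered 2202 for TCR against unstimulated, 207 for the PI3K inhibitor and 385 for the MEK inhibitor against TCR, 341 for the MEK against the PI3K inhibitor, and 1608 and 1478 for the PI3K and MEK inhibitors against unstimulated. In that order a pseudocount of 1 gave 1405, 90, 201, 150, 979 and 873, and limma treat gave 1174, 27, 106, 64, 803 and 739. Leaving out each culture gave 2172 to 2268, 195 to 241, 377 to 440, 330 to 368, 1581 to 1633 and 1466 to 1529. The share of calls that were higher was 44.4%, 26.6%, 28.1%, 44.9%, 49.1% and 51.8%, and on the TPM scale it was 22.1%, 52.7%, 61.5%, 54.3%, 32.9% and 39.7%, with medians of all genes at -0.41, 0.19, 0.26, 0.07, -0.22 and -0.15.

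Differences near 0 changed sign. Nr4a3 with the MEK against the PI3K inhibitor was 0.025 on the TPM scale and 0.031 without PI3K inhibitor replicate 3 (from -0.161, without PI3K inhibitor replicate 1, to 0.031). The ratio of Nr4a1 to Nr4a2 with the MEK inhibitor was -0.031 without MEK inhibitor replicate 1, -0.001 without replicate 3 and -0.085 without TCR replicate 2, and leaving out each culture gave -0.085 to 0.092. The ratio of Nr4a2 to Nr4a3 on stimulation was -0.091 with a pseudocount of 1 and -0.072 without unstimulated replicate 2, and leaving out each culture gave -0.072 to 0.206. Pairing the ratios by replicate number, as a block in a sign-flip permutation, gave exact p = 0.25 or 0.75, where 0.25 is the smallest it can give, so that test could not pass 0.05. The causes of these changes were not tested. The rank of nearest genes by Pearson r shared 0 of 5 with the ranks by distance.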
